A study of Canis lupus familiaris with 22 samples.

Results

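The genes described here encode cytokines, chemokines and their receptors, measured in canine mammary tumours and healthy mammary gland. They were taken as the non-control probes whose target is a canine RefSeq NM transcript with a gene symbol that starts with IL and a digit, CCL, CCR, CXCL, CXCR, TNF, IFN, TGFB or CSF, with CCL2, CCL8, CCL17, CXCL8 and CXCL10 left out. The rule found 59 of the 36619 genes on the array, of which 1458 could be given a symbol. By role they are 19 interleukin ligands and soluble inhibitors, 6 interleukin receptor chains, 15 chemokines, 7 chemokine receptors, 4 ligands and 2 receptors of the TNF family, 5 interferons and 1 colony stimulating factor, CSF2. No TGFB gene and no interferon receptor came through the rule.

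Each Agilent canine array read the Cy3-labelled RNA of 1 tissue sample: 9 arrays from 5 malignant tumours, 6 from 3 benign tumours and 4 from 2 healthy glands. The tumours were clinical cases removed at surgery, the healthy glands came from other dogs, and the labels give no age, breed or treatment. By the study's methods the malignant group mixes histological types. They are carcinomas of solid, squamous and lipid rich kind among others, a malignant myoepithelioma and a fibrosarcoma. The benign group holds adenomas, a papillary adenoma and a cystadenomyoepithelioma. The types were not matched to the arrays, which cover fewer tumours than the study's groups. Arrays a and b of an animal were averaged, so every n counts dogs.

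As background, cytokines are secreted proteins that carry signals between immune, stromal and epithelial cells, and each acts on cells that display its receptor. Interleukin-1 family members and IL-6 drive inflammation, chemokines draw leukocytes that carry the matching receptor, and soluble antagonists and decoy receptors such as IL1RN, IL18BP and IL13RA2 hold individual cytokines in check. In mammary tumours these genes are known mainly from infiltrating leukocytes, with a share made by the tumour epithelium and the stroma.

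The level of a gene is the log2 signal of its brightest probe after background subtraction, minus the 75th percentile of the array, so that 0 stands for that percentile and 1 unit is a doubling. Levels of the members were compared between dogs within a probe, never between probes. The sums of markers given below add signals over probes, so bright probes weigh most in them. By the flag of the scanner software, between 63.7% and 76.4% of probes were well above background on malignant arrays, between 71.5% and 83.2% on benign arrays and between 62.2% and 71.4% on healthy arrays. Of the 59 genes, 57 were well above background on at least 4 arrays, and these were tested among 28939 such genes in a limma fit of the 3 groups, with p-values adjusted over all of them. On every array, 22 of the members were well above background. IFNB1, a type I interferon, was well above background on 0 arrays and CCR9, the receptor of CCL25, on 3 arrays, and neither was tested.

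Some members were not measured in every group. Healthy arrays never showed IL1A, IL1B, IL3, IL13, IL21, IL2RA, CCL1, IFNG, CCR9 or IFNB1 well above background, 10 genes in all, which is 16.9% of the members against 25.1% of all genes on the array. The interleukin-2 receptor chain IL2RA was well above background on 4 of 6 benign arrays and on 0 malignant and 0 healthy arrays. Without the benign arrays 11 members would have missed the filter (IL1B, IL2, IL3, IL4, IL12B, IL13, IL21, IL2RA, CCL1, CCL26 and IFNG), 19.3% of those tested against 5.83% of all genes tested. Without the malignant arrays it would be 4 (IL2, IL4, IL12B and IL21), 7.02% against 6.39%, and without the healthy arrays 1 (CCL26), 1.75% against 1.54%. A gene that passed only through the group where it is high had to differ, so the counts below describe the genes tested and do not stand for all 59.

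**Figure D1:**
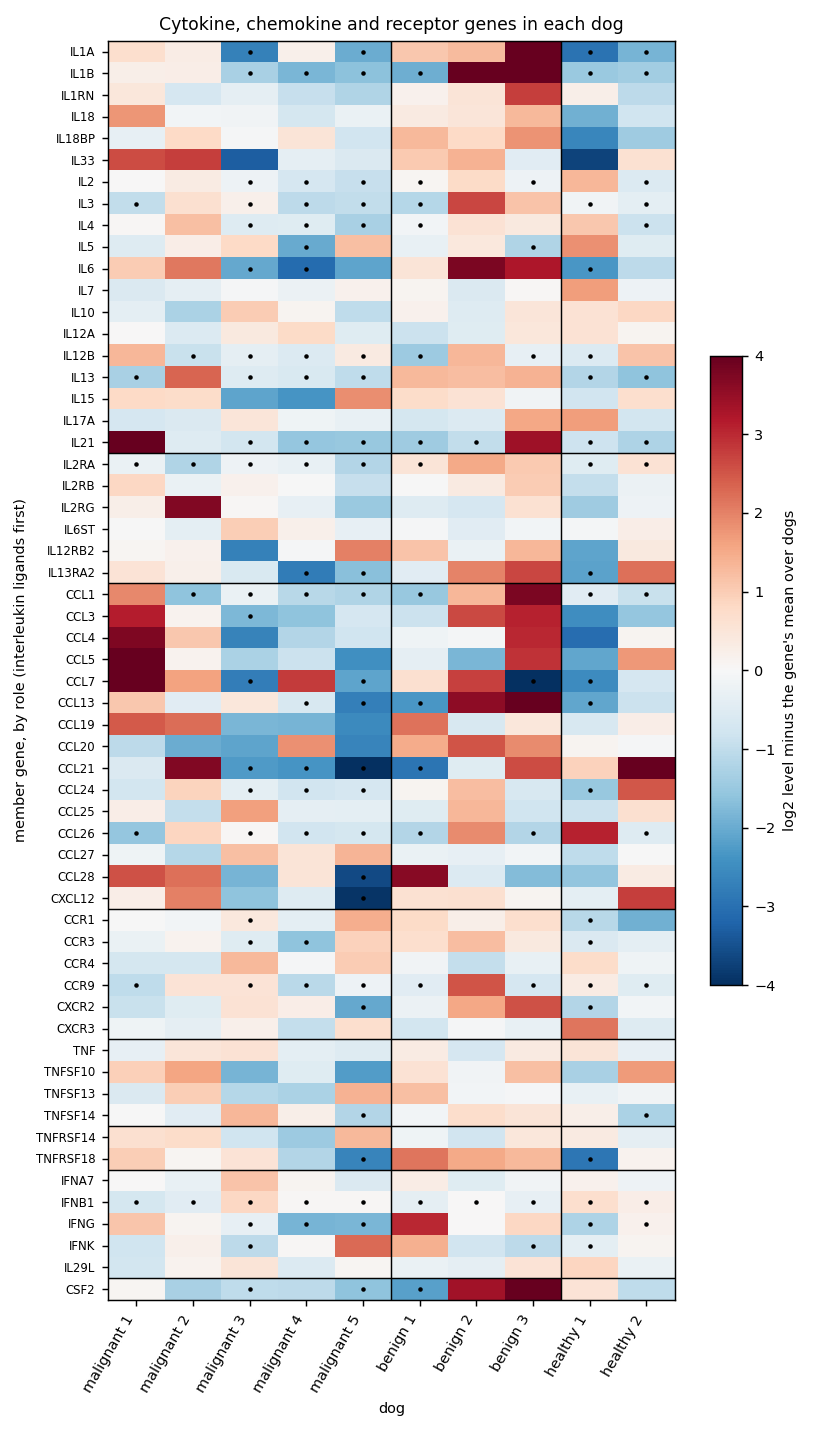
Level of members (vertical axis, by role) in each dog (horizontal axis), as the log2 level minus the gene's mean over the 10 dogs, red above and blue below that mean. Black dots mark dogs with no array of the gene well above background. IL1A, IL1B, IL6, CCL13 and CSF2 are reddest in benign dogs 2 and 3, and IL18BP is blue in both healthy dogs.

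Markers of the tissues show what the samples held beside immune cells. Mammary epithelium markers, 5 of 10 measured with KRT14 the brightest probe, had summed levels of 6.96, 7.20, 3.47, 8.02 and 1.51 in malignant dogs 1 to 5, 7.28, 4.70 and 8.45 in benign dogs 1 to 3, and 5.02 and 6.32 in healthy dogs 1 and 2. Exocrine pancreas markers, 6 of 17 measured with PLA2G1B the brightest probe, had summed levels of 11.83 and 9.37 in the healthy dogs and between 0.55 and 1.72 in the malignant dogs. In benign dogs the sum was at 1.31, 0.83 and 0.84. All 5 islet markers were measured, with PPY the brightest probe over all dogs. Their sum was at 9.62 and 4.81 in the healthy dogs, between -2.29 and -0.86 in malignant dogs, and at -1.78, 2.28 and -1.94 in benign dogs. The sums of the healthy dogs were mostly INS, at 9.36 and 4.64, and that of benign dog 2 was mostly GCG, at 2.19. The tissue called healthy mammary gland thus held transcripts known from pancreas beside those of mammary epithelium, and limma called 5 of 6 exocrine markers lower in malignant and 5 of 6 lower in benign tumours. Their part in the results on cytokines was not tested.

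Macrophage and monocyte markers, 5 of 14 measured (CD163, CD40, CD86, FCGR1A and SLC11A1, the last with the brightest probe), had summed levels of 5.35, 3.80, 4.54, 4.04 and 5.27 in malignant dogs, 5.11, 5.66 and 6.25 in benign dogs, and 1.34 and 3.67 in healthy dogs. By this sum all tumours lay above both healthy dogs, malignant dog 2 only just above healthy dog 2. CD163 did not follow, at 1.91 in healthy dog 2 and higher only in malignant dog 5, at 2.01. Limma called FCGR1A, a receptor for immunoglobulin, higher in benign tumours (log2 fold change 4.04, SE 0.64, adjusted p = 0.0275, higher in 3 of 3 dogs). That call was lost without malignant dog 1, 3 or 4, benign dog 2 or 3, or healthy dog 1. Neutrophil markers, 3 of 7 measured with S100A8 the brightest probe, were at 4.18, 2.69, 2.22, 7.84 and 1.78 in malignant dogs, 5.35, 5.67 and 8.45 in benign dogs, and 0.48 and 1.74 in healthy dogs. The sum is S100A8 almost alone, high in the benign dogs and malignant dog 4, while the other 2 were lower in benign than in healthy dogs on average, CAMP by -0.71 and ELANE by -0.86, and neither passed the test. T cell markers, 3 of 12 measured with CD8A the brightest probe, were at -0.37, -1.88, -2.10, -1.90 and -1.23 in malignant dogs, -2.11, -2.42 and -0.82 in benign dogs, and -2.44 and -1.85 in healthy dogs. Of the 6 pan leukocyte markers 0 were on the array under a symbol, and every marker that was measured was well above background on some array. In tissue RNA, fewer cells of a type and less RNA per cell cannot be told apart, and the part of these cell types in the results below was not tested.

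**Figure D2:**
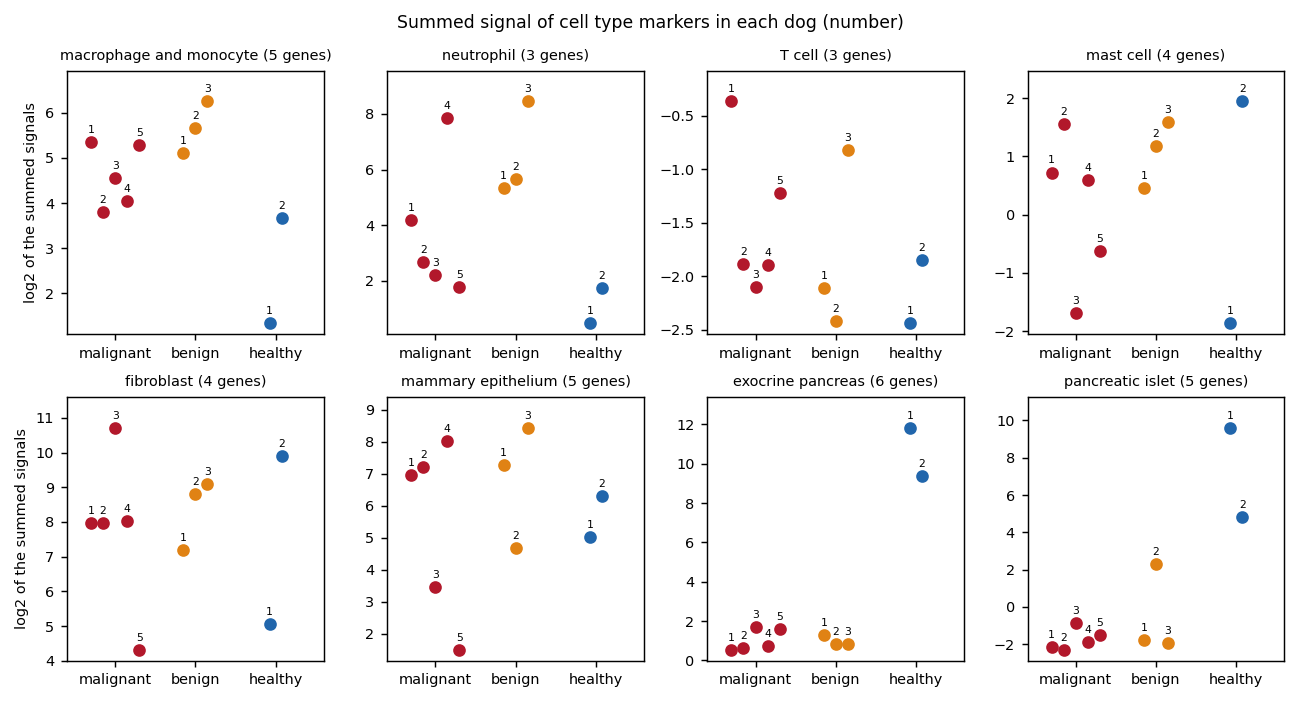
Log2 of the summed signals of cell type markers in each dog (points, numbered by dog) for malignant, benign and healthy tissue, in a panel per list with the number of genes measured. The macrophage sum is higher in every tumour than in both healthy dogs, though CD163 alone is not. The neutrophil sum, carried by S100A8, is highest in benign dog 3 and malignant dog 4, and pancreas markers are highest in the healthy dogs.

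In malignant tumours against healthy gland, the soluble inhibitor of interleukin-18 stood out among the members, with interleukin-18 itself and the chemokine receptor CCR1 beside it. IL18BP, IL18 and CCR1 were the 3 members with every malignant dog above both healthy dogs, 5.26% of those tested, near the 4.23% of all genes. The chemokines of lymphoid tissue and stroma, CCL21 and CXCL12, were lower on average, and so were IL7 and IL10, but for each of these the dogs of the groups overlapped. The direction of CCR1 turned with another background correction and without any.

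IL18BP encodes a secreted protein that binds interleukin-18 and blocks it. It was at 1.36, 2.49, 1.64, 2.20 and 0.93 in malignant dogs 1 to 5, at 2.98, 2.50 and 3.50 in benign dogs 1 to 3, and at -0.91 and 0.26 in healthy dogs 1 and 2. All 8 tumours lay above both healthy dogs, and all 3 benign tumours above all 5 malignant ones, the closest pair being malignant dog 2 and benign dog 2. Its log2 fold change was 2.04 (SE 0.57, limma adjusted p = 0.450, higher in 5 of 5 dogs). On the 3 slides that held both groups the difference was between 1.74 and 2.70, and it was 2.18 with the slide as a block. Its adjusted p lay between 0.0499 and 1.00 over 25 settings, and only the fit of arrays with the dog as a random block called it.

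IL18, an interleukin-1 family cytokine that stimulates interferon gamma production, was at 0.54, -1.33, -1.35, -1.92 and -1.48 in malignant dogs, at -0.88, -0.73 and 0.06 in benign dogs, and at -3.15 and -2.02 in healthy dogs. Malignant dog 1 stood above the rest of its group, and malignant dog 4 lay only just above healthy dog 2. Against healthy gland its log2 fold change was 1.47 in malignant tumours (SE 0.67, limma adjusted p = 0.853, higher in 5 of 5 dogs), and another IL18 probe gave 1.02. On the slides that held both groups IL18 was higher on 3 of 3, by 0.04 to 3.09.

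CCR1, a receptor of CCL3 and CCL5 on monocytes and other leukocytes, was at -5.10, -5.19, -4.66, -5.47 and -3.62 in malignant dogs, at -4.32, -4.85 and -4.43 in benign dogs, and at -6.20 and -7.02 in healthy dogs. All tumours were above both healthy dogs, yet the probe is dim, well above background on 5 of 9 malignant, 5 of 6 benign and 1 of 4 healthy arrays. For CCR1 the log2 fold change was 1.80 (SE 0.56, limma adjusted p = 0.581). It depends on how background is handled: with another background correction (normexp) it was -0.16, and in the authors' table, which has no background taken off, it was -0.08.

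CCL21, which guides T cells and dendritic cells into lymphoid tissue, was at -3.79, 0.49, -5.48, -5.57 and -7.31 in malignant dogs, at -6.14, -3.71 and -0.61 in benign dogs, and at -2.30 and 2.24 in healthy dogs. It was lower than both healthy dogs in 4 of 5 malignant dogs, malignant dog 2 lying between them. Its mean difference was -4.30 (SE 2.02, limma adjusted p = 0.855), and it became -6.57 when healthy dog 1 was left out and -2.03 without healthy dog 2. CXCL12, a stromal chemokine and the ligand of CXCR4, was at -1.60, 0.17, -3.49, -2.38 and -5.79 in malignant dogs, at -1.27, -1.22 and -1.74 in benign dogs, and at -2.24 and 0.92 in healthy dogs. Healthy dog 2 was the highest and malignant dog 5 the lowest, with the groups overlapping. Its log2 fold change in malignant tumours was -1.96, which became -0.38 without healthy dog 2.

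IL10, an inhibitory cytokine, was at -2.71, -3.59, -1.32, -2.22 and -3.35 in malignant dogs, at -2.16, -2.83 and -1.83 in benign dogs, and at -1.76 and -1.49 in healthy dogs. Every benign dog was below both healthy dogs, and malignant dog 3 was above them. The pair of arrays of malignant dog 3 differed by 2.33 for IL10 and that of malignant dog 4 by 2.27, so their places are not firm. Its log2 fold change in malignant tumours was -1.01 (SE 0.63). IL7, a survival factor of lymphocytes, was at -3.37, -3.14, -2.85, -3.03 and -2.64 in malignant dogs, at -2.68, -3.38 and -2.75 in benign dogs, and at -1.12 and -2.99 in healthy dogs. Healthy dog 1 alone was high, and without it the log2 fold change of -0.95 in malignant tumours became -0.01. CCL26, an eotaxin that draws eosinophils, was at -8.11, -5.71, -6.53, -7.34 and -7.28 in malignant dogs, at -7.72, -4.69 and -7.74 in benign dogs, and at -3.47 and -7.07 in healthy dogs. Its probe was well above background on only 5 of 19 arrays, and the log2 fold change of -1.72 became 0.07 without healthy dog 1.

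Limma called 0 of the 57 members in malignant minus healthy, where it called 0.304% of all genes tested, and the smallest adjusted p was 0.450. Limma's unadjusted p was at most 0.05 for 2 higher members (IL18BP and CCR1), 3.51% against 2.25% of all genes, and for 0 lower ones, against 3.61% of all genes. In 3 members every malignant dog was above both healthy dogs, 5.26% against 4.23% of all genes, and in 0 every malignant dog was below both, against 2.79%. These shares are near those of all genes and are no result about the members. The median log2 fold change over the members was 0.08, against 0.07 over all genes, with 30 higher and 27 lower, and it was 0 with the 7 genes measured in malignant but not in healthy tissue taken against the floor of those arrays. Leaving out healthy dog 1 gave 1 member higher, 1.75% against 0.428% of all genes, and 3 lower (CCL24, CCL21 and IL13RA2), 5.26% against 1.86%. Leaving out healthy dog 2 gave 2 higher, 3.51% against 5.59%, and 4 lower (IL7, CXCR3, CCL26 and IL2), 7.02% against 8.52%. With the slide as a block 1 was higher, 1.75% against 3.87%, and 1 lower (IL7), against 4.03%.

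In benign tumours against healthy gland no member passed the test, and several were higher on average. Cytokines of the interleukin-1 family (IL1A, IL1B and IL18), IL6, IL13 and the chemokine CCL3 were higher, as were the inhibitor IL18BP and the receptors CCR1 and TNFRSF18, though CCR1 and IL13 turned direction with normexp and in the authors' table. For all of these except IL1B the benign dogs did not overlap the healthy dogs. IL18BP came closest to the threshold of limma, and IL10 was the only member tested for which both healthy dogs lay above all benign dogs.

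IL18BP, whose levels are given above, had a log2 fold change in benign tumours of 3.32 (SE 0.62, limma adjusted p = 0.0843, higher in 3 of 3 dogs). It was 2.90 and 3.42 on the 2 slides that held both groups and 3.28 with the slide as a block. Over 25 settings its log2 fold change lay between 2.73 and 3.90 and its adjusted p between 0.00163 and 1.00, and 6 settings called it. It was the only member counted as higher at an unadjusted p of at most 0.05 in all 25 of them. IL18 was higher in 3 of 3 benign dogs, with a log2 fold change of 2.07 (SE 0.74, limma adjusted p = 0.652), and another IL18 probe gave 2.36, while normexp gave 1.07. CCR1 was higher by 2.08, again reversed with normexp (-0.86) and in the authors' table (-0.36).

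IL1A, an alarm cytokine of damaged epithelium, was at -3.14, -3.51, -6.51, -3.61 and -5.81 in malignant dogs, at -2.72, -2.55 and 2.15 in benign dogs, and at -6.76 and -5.68 in healthy dogs. All benign dogs were above all other dogs, and benign dog 3 was far above the rest. No healthy array was well above background, so with the background taken off as here the benign mean was at least 22.4-fold that of healthy gland (limma adjusted p = 0.465). That bound fell to 7.43-fold without benign dog 3, and the log2 difference was only 2.20 in the authors' table and 1.60 with normexp. IL1B, the interleukin-1 that activated macrophages secrete, was at -4.98, -4.93, -6.49, -7.02 and -6.85 in malignant dogs, at -7.17, -0.93 and -0.37 in benign dogs, and at -6.70 and -6.61 in healthy dogs. Benign dogs 2 and 3 were high while benign dog 1 was the lowest of all, with 0 arrays well above background. So the benign dogs lay on both sides of the healthy ones.

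IL6, which drives acute inflammation, was at -1.79, -0.68, -4.86, -5.89 and -4.90 in malignant dogs, at -2.29, 0.95 and 0.43 in benign dogs, and at -5.13 and -3.86 in healthy dogs. The benign dogs lay above both healthy dogs, and malignant dogs 1 and 2 reached the benign range while the other malignant dogs did not. IL6 differed by a log2 fold change of 4.19 (SE 1.51, limma adjusted p = 0.653, higher in 3 of 3 dogs), and another IL6 probe gave 4.32. It was 2.57 in the authors' table and 2.13 with normexp. IL13, a cytokine of type 2 immunity, was at -6.74, -3.11, -5.97, -6.05 and -6.46 in malignant dogs, at -4.15, -4.22 and -4.05 in benign dogs, and at -6.63 and -7.05 in healthy dogs. The benign dogs were close together, and malignant dog 2 alone was higher than them. No healthy array was well above background, and IL13 passed the filter only through the benign arrays, so it had to differ. With the background taken off as here the benign mean was at least 3.48-fold that of healthy gland. That bound does not hold under other handling of background, since the difference was -0.08 in the authors' table and -0.55 with normexp.

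CCL3, which attracts monocytes through CCR1, was at 0.36, -2.62, -4.57, -4.38 and -3.45 in malignant dogs, at -3.62, -0.12 and 0.32 in benign dogs, and at -5.25 and -4.30 in healthy dogs. Benign dogs 2 and 3 and malignant dog 1 were high, and benign dog 1 lay among the other malignant dogs. CCL3 differed by a log2 fold change of 3.64 (SE 1.47, limma adjusted p = 0.702, higher in 3 of 3 dogs), but by 1.97 in the authors' table and 1.53 with normexp. TNFRSF18, the co-stimulatory T cell receptor GITR, was at -1.70, -2.62, -2.14, -3.87 and -5.33 in malignant dogs, at -0.55, -1.17 and -1.39 in benign dogs, and at -5.58 and -2.54 in healthy dogs. All benign dogs were above all other dogs. Malignant dogs 1 and 3 lay above both healthy dogs, and malignant dogs 2, 4 and 5 lay between the healthy dogs. TNFRSF18 differed by 3.02 (SE 1.11, limma adjusted p = 0.655), 1.50 without healthy dog 1 and 4.54 without healthy dog 2, and by 1.36 in the authors' table and 0.90 with normexp.

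In benign minus healthy, limma called 0 of the 57 members, where it called 0.28% of all genes tested. The unadjusted limma p was at most 0.05 for 9 higher members (IL18BP, IL1A, CCR1, IL13, IL18, IL6, TNFRSF18, CCL3 and IL1B), 15.8% against 3% of all genes, and for 0 lower ones, against 3.78%. IL1B and IL13 among them passed the filter only with the benign arrays. In 13 members every benign dog was above both healthy dogs, 22.8% against 11.9% of all genes, and in 1 (IL10) every benign dog was below both, 1.75% against 11.6%. Among the 13 were those just named except IL1B, and also CCL20, CCR3, IL2RB and TNFSF13. Over the members 39 were higher and 18 lower, with a median log2 fold change of 0.88 against 0.01 over all genes, and of 0.62 with the 8 genes not measured in healthy tissue taken against the floor of those arrays. Among the 22 members well above background on every array the median was 0.31, with 12 higher and 10 lower, against -0.02 over all such genes. Here the background correction matters: with normexp the median was -0.39 where that of all genes moved to -0.53, and in the authors' table -0.10 where that of all genes moved to -0.40, so relative to all genes it stayed above by 0.14 and 0.30. With normexp 2 members were counted as higher (IL18BP and IL6), 3.51% against 1.66% of all genes, and 2 as lower (CCL21 and CCL24), 3.51% against 6.13%. By the authors' values it was 5 as higher, 8.77% against 2.03%, and with the slide as a block 4 (IL18BP, IL1A, TNFRSF18 and IL6), 7.02% against 4.55%. Leaving out a dog gave between 4 (without healthy dog 1, 7.02% against 0.688%) and 14 (without benign dog 1, 24.6% against 3.65%) members as higher, and up to 3 as lower (without healthy dog 2, 5.26% against 9.32%). IL1B was called without benign dog 1 and IL18BP without healthy dog 2, and the median over the members was 0.39 without healthy dog 1.

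**Figure D3:**
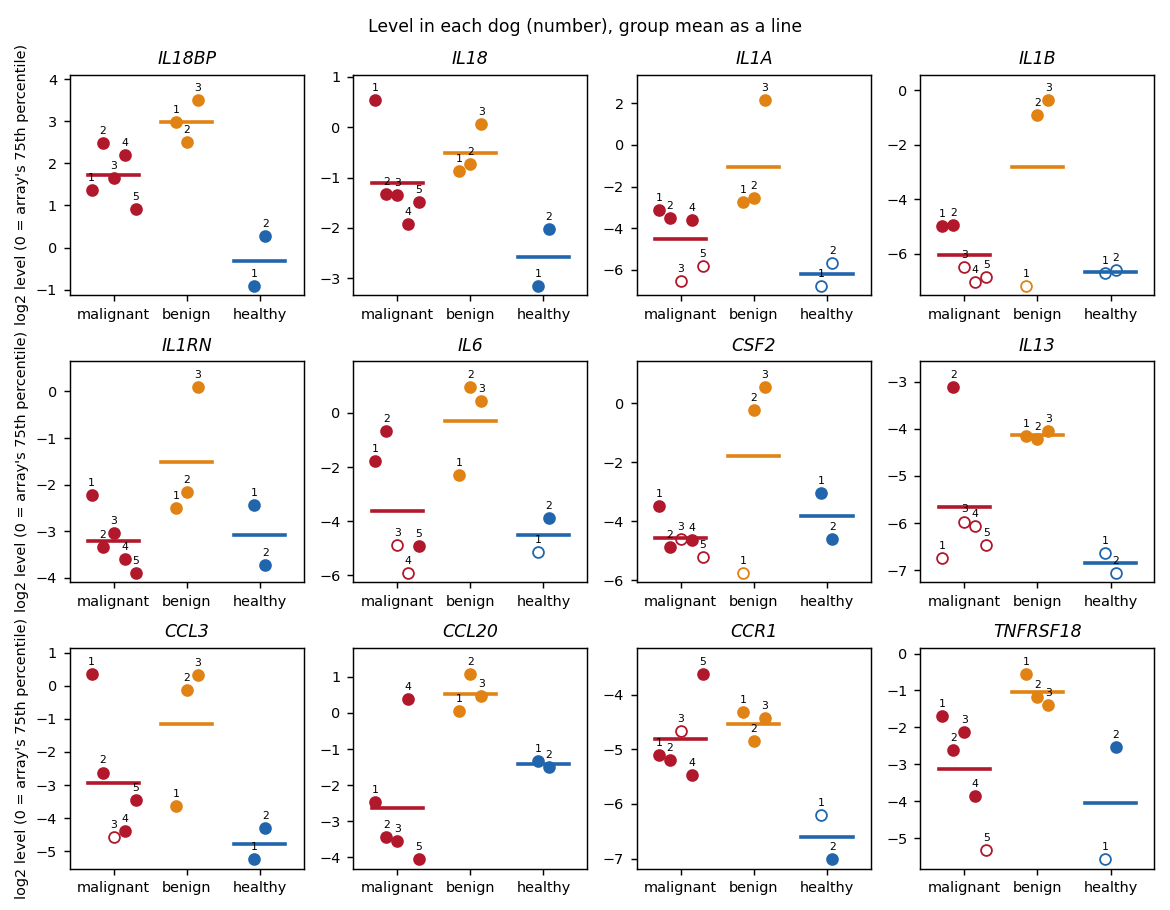
Log2 level of 12 members in each dog (points, numbered by dog), with the mean of each group as a line and open points for dogs without an array well above background. For IL18BP the 3 groups do not overlap, but malignant dog 2 (2.49) and benign dog 2 (2.50) are nearly level. IL1B and CSF2 are high in benign dogs 2 and 3 only, and CCL20 is high in the benign dogs and malignant dog 4.

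Malignant tumours were also compared with benign ones directly, a comparison that does not use the healthy dogs as reference. No member passed the test. Among the members that were lower on average in malignant tumours were IL1A, IL1B and the interleukin-1 antagonist IL1RN, IL6, the chemokine CCL20, the neutrophil receptor CXCR2, the growth factor CSF2, the receptors IL2RA and TNFRSF18, and IL18BP, though IL2RA turned direction with normexp and in the authors' table. In no setting was a member counted as higher in malignant tumours.

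CCL20, which draws dendritic cells and lymphocytes through CCR6, was at -2.48, -3.43, -3.55, 0.40 and -4.06 in malignant dogs, at 0.06, 1.08 and 0.46 in benign dogs, and at -1.33 and -1.49 in healthy dogs. Malignant dogs 1, 2, 3 and 5 were below both healthy dogs, and malignant dog 4 lay within the benign range. Between the tumours its log2 fold change was -3.16 (SE 0.88, limma adjusted p = 1.00). It was -3.92 without malignant dog 4, -2.79 with the slide as a block and -2.41 with normexp. On the 4 slides with both tumours it was between -4.43 and -2.49 on 3, and higher by 0.21 on the slide where malignant dog 4 met benign dogs 1 and 3. CCL20 was the only member counted as lower at an unadjusted p of at most 0.05 in all 25 settings.

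IL1A differed between the tumours by -3.48 (SE 1.17, limma adjusted p = 1.00), lower on 4 of 4 slides, and -1.88 without benign dog 3, -1.96 in the authors' table and -1.59 with normexp. IL6 was lower by a log2 fold change of -3.32 (SE 1.21), lower on 3 of 4 slides, and -3.35 by its other probe, -2.05 in the authors' table and -1.68 with normexp. IL1RN, the secreted antagonist of the interleukin-1 receptor, was at -2.21, -3.34, -3.04, -3.59 and -3.89 in malignant dogs, at -2.50, -2.16 and 0.10 in benign dogs, and at -2.43 and -3.72 in healthy dogs. Benign dog 3 was far above every other dog, the other benign dogs reached only the top of the malignant range, and the log2 fold change of -1.69 became -0.89 without benign dog 3 and -0.70 with normexp. So IL1A and IL1RN, a ligand and the antagonist of its receptor, both peaked in benign dog 3.

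IL2RA, the high-affinity chain of the interleukin-2 receptor, was at -6.31, -7.26, -6.26, -6.34 and -7.21 in malignant dogs, at -5.53, -4.52 and -4.99 in benign dogs, and at -6.54 and -5.46 in healthy dogs. Every malignant dog was below every benign dog, but 0 of 9 malignant arrays and no array of benign dog 1 were well above background, so no fold is given. The sign of the difference turned to 0.08 in the authors' table and to 0.37 with normexp. CSF2, which encodes GM-CSF, was at -3.49, -4.88, -4.58, -4.64 and -5.20 in malignant dogs, at -5.74, -0.22 and 0.55 in benign dogs, and at -3.03 and -4.59 in healthy dogs. Benign dogs 2 and 3 were high and benign dog 1 was the lowest dog, and the log2 fold change between the tumours of -2.76 (SE 1.19) became -1.58 without benign dog 3, -4.73 without benign dog 1 and -1.35 with normexp. Its other probe gave -2.93.

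CXCR2, by which neutrophils follow CXCL8, was at -5.63, -5.23, -4.18, -4.49 and -6.80 in malignant dogs, at -4.98, -3.19 and -2.21 in benign dogs, and at -5.91 and -4.85 in healthy dogs. Benign dogs 2 and 3 were the highest, and benign dog 1 lay inside the malignant range. CXCR2 differed by -1.80 (SE 0.74), lower on 4 of 4 slides, and -1.18 without benign dog 3 and -0.27 with normexp. TNFRSF18 was lower by a log2 fold change of -2.10 and IL18BP by one of -1.27, each on 4 of 4 slides and with every malignant dog below every benign dog, and with normexp these were -0.98 and -1.33. IL1B, with a log2 fold change of -3.23, was lower on 3 of 4 slides and higher by 1.48 on the slide where malignant dog 1 met benign dog 1. Malignant dogs 3, 4 and 5 and benign dog 1 had no array of IL1B well above background, so its fold is not exact. The log2 fold change of IL1B was -2.0 without benign dog 3, -5.40 without benign dog 1, -1.55 in the authors' table and -1.17 with normexp.

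Between the tumours, limma called 0 of the 57 members in malignant minus benign, where it called 0% of all genes tested. For 10 lower members limma's unadjusted p was at most 0.05, 17.5% against 1.11% of all genes, and for 0 higher ones, against 0.66%. IL1B and IL2RA among the 10 passed the filter only with the benign arrays. In 4 members (IL1A, IL18BP, IL2RA and TNFRSF18) every malignant dog was below every benign dog, 7.02% against 0.878% of all genes, and in 0 every malignant dog was above, against 1.07%. The median log2 fold change over the members was -0.50 against 0.08 over all genes, with 13 higher and 44 lower. With normexp the median was 0.17 where that of all genes moved to 0.35, 35 members were higher and 22 lower, and 4 were counted as lower (CCL20, IL18BP, IL6 and TNFRSF18), 7.02% against 0.667% of all genes. By the authors' values 6 were counted as lower (CCL20, IL18BP, TNFRSF18, IL6, IL1A and CSF2), 10.5% against 0.795%, with a median of 0.00 against 0.26 over all genes, so that the 44 of 57 below 0 depend on the scale while the members stayed lower relative to all genes. With the slide as a block 6 were counted as lower, 10.5% against 1.44%, and with the methods' t-test, run unpaired, 3, which is 5.26% against 1.1%. The count rested much on single dogs: it was 2 without benign dog 3 (CCL20 and IL2RA, 3.51% against 1.05% of all genes), 5 without malignant dog 5 (8.77% against 1.04%), 6 without benign dog 2 or malignant dog 4, and 13 without benign dog 1 (22.8% against 1.82%).

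**Figure D4:**
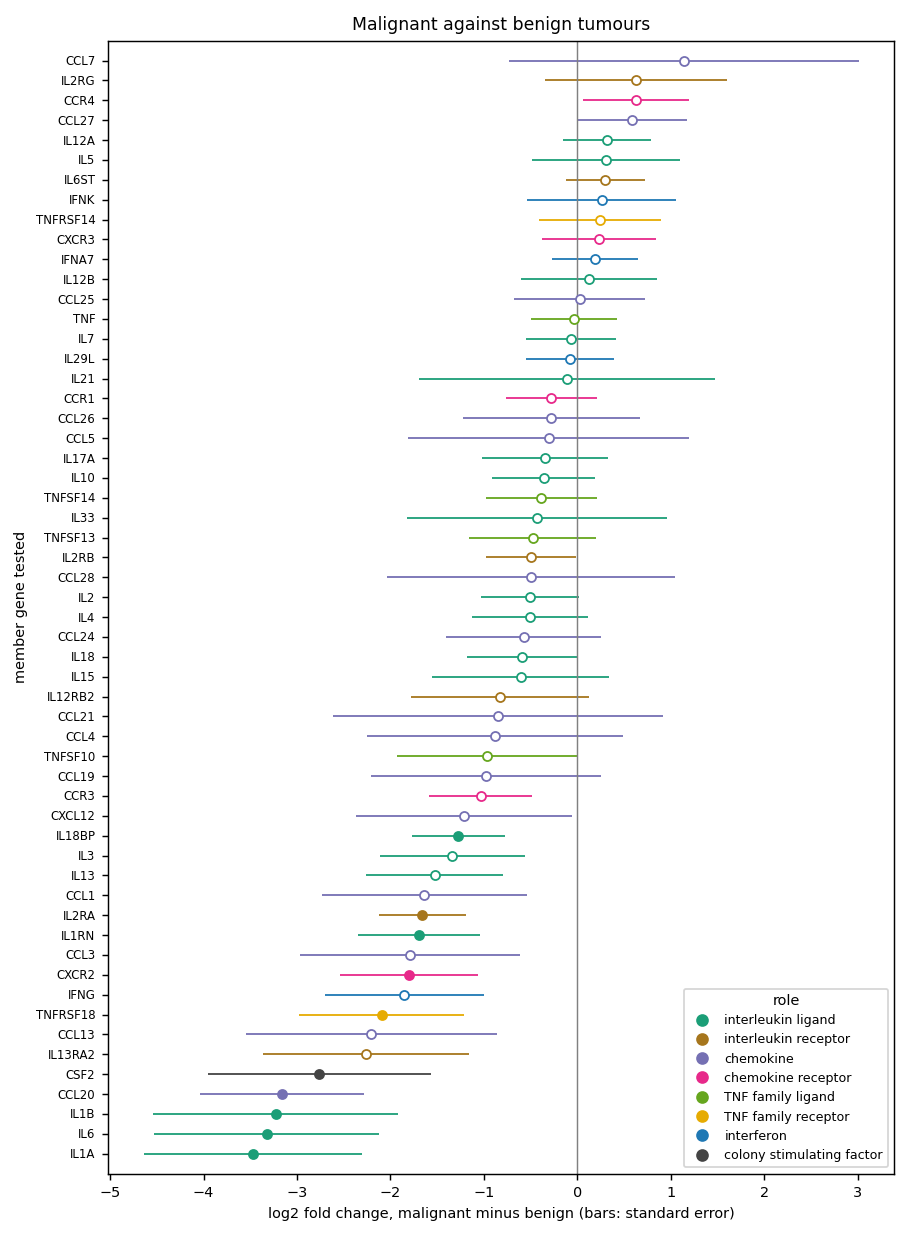
Log2 fold change between malignant and benign tumours (horizontal axis, bars for the standard error) of members tested (vertical axis), coloured by role and filled where the unadjusted limma p is at most 0.05. All 10 filled points lie left of 0, and of all 57 tested the number below 0 depends on the background correction, 44 as analysed here and 22 with normexp.

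The benign dogs differed among themselves. IL1B, CSF2 and CCL13 were all high in benign dogs 2 and 3 and low in benign dog 1, a pattern singled out after the values were seen. CCL13, a monocyte chemokine, was at -7.06 in benign dog 1 and at -1.15 and -0.71 in benign dogs 2 and 3, with malignant dogs between -7.45 and -3.65 and healthy dogs at -6.81 and -5.57. The direction of IL3 and CCL1 against healthy gland also turned with normexp and in the authors' table. IL3, a growth factor of blood cells that lies beside CSF2 in the genome, was at -6.47 in benign dog 1 and at -2.66 and -4.19 in the other benign dogs by its brightest probe, and its other probe gave -0.06 in benign minus healthy. CCL1 was at -8.01, -5.16 and -2.70 in the benign dogs, with malignant dog 1, at -4.54, above benign dog 2. Benign dog 1 was in turn the highest dog for IFNG, the type II interferon, and for the mucosal chemokine CCL28. IFNG was at -4.40, -5.41, -5.82, -7.36 and -7.35 in malignant dogs, at -2.50, -5.49 and -4.66 in benign dogs, and at -6.75 and -5.33 in healthy dogs. No healthy array showed it well above background, and in the authors' table the difference of benign from healthy dogs was -0.12. CCL28 was at 1.05 in benign dog 1, at -0.05 and -0.39 in malignant dogs 1 and 2, and at -2.08 or less in the other dogs.

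Benign dog 3 was the highest of the 10 dogs for 11 of 57 members, 19.3%, where it was the highest for 7.64% of all genes tested. Malignant dog 1 was the highest for 8, 14.0% against 4.12%, and each of the other dogs for between 1 and 7. The share was below that of all genes in malignant dogs 3 (12.3% against 22.2%), 4 (1.75% against 7.34%) and 5 (12.3% against 19.9%) and in healthy dog 1 (12.3% against 17.1%). In malignant dog 2, benign dogs 1 and 2 and healthy dog 2 it was above. Of the members tested, 31 were above both healthy dogs in benign dog 3, 26 in benign dog 2 and 22 in benign dog 1, which is 54.4%, 45.6% and 38.6% of them, beside 29.7%, 36.0% and 30.4% of all genes. In malignant dogs 1 to 5 the number was 26, 24, 21, 14 and 13, or 45.6%, 42.1%, 36.8%, 24.6% and 22.8%, beside 28.8%, 26.5%, 42.8%, 34.5% and 39.7% of all genes. These counts depend on how background is handled: in the authors' table they were 20, 15, 31, 6 and 9 in malignant dogs and 15, 17 and 24 in benign dogs. The shares of all genes there were 21.2%, 16.7%, 53.8%, 26.4% and 33.1% in malignant dogs and 19.9%, 22.1% and 22.3% in benign dogs. Malignant dog 5 had 26 members below both healthy dogs, 45.6% against 31.4% of all genes. Its slide held no other array used here, and it was scanned on another day and scanner than all other arrays. Malignant dog 4 had 23 members below both, 40.4% against 30.6%.

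CCL5, which draws T cells and monocytes, was at 6.15, 2.27, 0.87, 1.28 and -0.32 in malignant dogs, at 1.77, 0.28 and 5.02 in benign dogs, and at 0.06 and 3.87 in healthy dogs. CCL4, a chemokine of monocytes and T cells, was at 4.37, 1.71, -2.06, -0.55 and -0.18 in malignant dogs, at 0.45, 0.54 and 3.63 in benign dogs, and at -2.43 and 0.73 in healthy dogs. Both were highest in malignant dog 1 and next in benign dog 3. IL21, made by helper T cells, was at -0.47 in malignant dog 1 and -2.45 in benign dog 3 and at -6.38 or less in all other dogs. CCL7 had the widest spread among malignant dogs (1.19, -1.83, -6.20, -0.63 and -5.52), and its log2 fold change between the tumours of 1.14 had a standard error of 1.87. IL33, an alarm cytokine of barrier cells, was at 2.94 and 3.08 in malignant dogs 1 and 2 and at -2.98, -0.03 and -0.24 in the others, with 1.37, 1.72 and -0.14 in benign dogs and -3.36 and 0.94 in healthy dogs.

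Among interleukin receptors, 6 of 6 were tested and 0 called. Only IL2RA, which passed the filter through the benign arrays alone, had an unadjusted limma p of at most 0.05 in a comparison. IL2RB, the beta chain for interleukin-2 and interleukin-15, was at -2.53, -3.65, -3.20, -3.38 and -4.31 in malignant dogs, at -3.39, -3.01 and -2.36 in benign dogs, and at -4.33 and -3.60 in healthy dogs. Every benign dog was above both healthy dogs, by a log2 fold change of 1.05 (SE 0.61), while its other probes gave 0.22 and 0.61 and normexp -0.26. IL2RG, the common gamma chain, was at 1.06 in malignant dog 2 and between -4.14 and -2.05 in all other dogs. IL6ST, the gp130 chain shared by receptors of the interleukin-6 family, was by its brightest probe the steadiest receptor, between 4.20 and 5.63 over all dogs. Its other probes varied more, with standard errors of the difference between the tumours from 0.58 to 0.73, against 0.42 for the brightest. IL13RA2, a decoy receptor for interleukin-13, was at -4.89, -2.45 and -1.75 in benign dogs, between -7.22 and -3.88 in malignant dogs, and at -6.58 and -2.23 in healthy dogs. Its log2 fold change between the tumours was -2.26 (SE 1.11), and its other probes gave -2.01 and -1.75, while normexp gave -0.35. For IL12RB2, an interleukin-12 receptor chain, the probes differed: the brightest gave 1.60 in benign minus healthy and another gave -0.43.

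Of the TNF family members, only TNFRSF18 had an unadjusted limma p of at most 0.05 in a comparison. TNFSF10 was between 1.29 and 5.22 over all dogs, with a log2 fold change between the tumours of -0.96. TNF itself was between -3.83 and -2.59 over all 10 dogs, with a log2 fold change between the tumours of -0.04 (SE 0.46). TNFSF13, the B cell factor APRIL, was at 0.92, 2.48, 0.36, 0.25 and 2.90 in malignant dogs, at 2.70, 1.41 and 1.47 in benign dogs, and at 1.22 and 1.35 in healthy dogs. The benign dogs lay above the healthy ones and the malignant dogs on both sides, with a log2 fold change of 0.57 in benign tumours (SE 0.85). TNFSF14, the ligand LIGHT, was at -4.56, -5.02, -3.23, -4.31 and -5.73 in malignant dogs, at -4.67, -3.84 and -4.04 in benign dogs, and at -4.31 and -5.81 in healthy dogs. Its receptor TNFRSF14 was at -0.06, 0.04, -1.49, -2.16 and 0.60 in malignant dogs, at -0.86, -1.45 and -0.26 in benign dogs, and at -0.34 and -1.05 in healthy dogs. Groups overlapped for both, with log2 fold changes in benign tumours of 0.88 for TNFSF14, which was -0.80 with normexp, and -0.16 for TNFRSF14.

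Of the interferon genes other than IFNG, 3 were tested and limma called 0 of them, with an unadjusted p above 0.05 in every comparison. IFNK, an interferon of keratinocytes, was at -5.71, -4.71, -5.97, -4.89 and -2.65 in malignant dogs, at -3.49, -5.68 and -5.97 in benign dogs, and at -5.30 and -4.81 in healthy dogs. Malignant dog 5 and benign dog 1 stood high and the groups overlapped. IFNA7, a type I interferon, was between 1.80 and 3.53 over all dogs and well above background on 19 of 19 arrays. The interferon alpha genes are near copies of each other, and which of them the probe reads was not tested. IL29L, an interferon lambda gene, was at -2.63, -1.75, -1.39, -2.45 and -1.83 in malignant dogs, at -2.17, -2.28 and -1.35 in benign dogs, and at -1.04 and -2.15 in healthy dogs. The groups overlapped, and the log2 fold change of -0.41 in malignant tumours became 0.14 without healthy dog 1. Genes that interferons induce were higher in benign tumours on average. Of 17 such genes 5 were named on the array, and their median log2 fold change was 1.81 in benign minus healthy, 0.48 in malignant minus healthy and -1.64 in malignant minus benign, with 0 called, and 1.60 in benign minus healthy with normexp. OAS2, an antiviral enzyme, was at 3.32, 2.21, 1.89, 0.85 and 2.26 in malignant dogs, at 3.99, 2.57 and 4.67 in benign dogs, and at -0.50 and 1.82 in healthy dogs. MX1, an antiviral GTPase, was at 4.72 in benign dog 1, the dog highest for IFNG, and between -1.04 and 2.27 in the other dogs.

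Other genes of cytokine signalling were read from a list of 103, of which 28 had a probe with a symbol and 27 were tested. Limma called 0 of the 27 in each comparison. Its unadjusted p was at most 0.05 for 1 gene higher in malignant tumours (CD40), 3 higher in benign tumours (OAS2, CD40 and OAS3) and 2 lower in malignant than in benign tumours (OAS1 and OAS2). In the same order and directions, 2.25%, 3% and 1.11% of all genes tested were counted. CD40, the receptor by which T cells activate antigen-presenting cells, was at 2.06, 0.91, 1.05, 0.73 and 2.21 in malignant dogs, at 1.78, 0.65 and 3.16 in benign dogs, and at -1.93 and 0.26 in healthy dogs, every tumour above both healthy dogs. Also among the 4 with the smallest p in a comparison with healthy gland were OAS3, EIF2AK2 and JAK1, with log2 fold changes of 1.39 (OAS3) and 1.41 (EIF2AK2) in benign tumours and of -0.90 (JAK1) in malignant tumours. The medians of the 27 were 0.31, 0.64 and -0.29 in malignant minus healthy, benign minus healthy and malignant minus benign, and -0.22, -0.51 and 0.29 with normexp, so their signs depend on the background correction.

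Several members lie side by side in the genome, by their order in the RefSeq gene table. IL1A, IL1B and IL1RN lie within a run of 8 protein-coding genes, and their levels in benign dog 3 were the highest of the 10 dogs for each. The genes IL3, CSF2, IL5, IL13 and IL4 lie within a run of 12. Of these CSF2 was high in benign dogs 2 and 3, IL13 was alike in the 3 benign dogs, and IL5, an eosinophil growth factor, was highest in healthy dog 1 at -2.62. The receptors CCR3, CCR1 and CCR9 are also neighbours. CCR3, the eotaxin receptor of eosinophils, was at -4.30, -3.73 and -4.58 in benign dogs, above both healthy dogs at -5.56 and -5.38, while malignant dogs lay between -6.59 and -4.04. Its difference in benign tumours of 1.27 was -0.70 with normexp.

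The dogs of a group spread widely, and for the members more than for all genes. Over members the median SD was 1.03 against 0.81 over all genes in malignant dogs, 0.74 against 0.53 in benign dogs and 0.88 against 0.64 in healthy dogs. The SD was over 2 for 10 members in malignant dogs, 11 in benign dogs and 11 in healthy dogs, counts given without a share of all genes. Well above background on every array were 37.3% of the members and 50.6% of all genes on the array. The part of low signal in the spread was not tested. CCL7 varied most among malignant dogs (SD 3.18), IL1B among benign dogs (SD 3.78) and CCL21 among healthy dogs (SD 3.21). The pair of arrays of a dog differed by a median of 0.11 (benign dog 3) to 0.32 (healthy dog 1) over the members, and at most by 4.58, for IL12B in healthy dog 2. In all 3 groups the number of dogs limits the precision, and both comparisons with healthy gland share the same 2 healthy dogs.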

How the data were processed

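Levels come from 19 Agilent canine arrays of 10 dogs. Per the file headers, Agilent Feature Extraction 11.5.1.1 took background and spatial trend off each spot to give the deposited processed intensity values. The authors' table of 22 arrays holds spot intensities without background subtraction or scaling, equal to the median signal at all 45220 spots of the arrays compared. Other columns as deposited are 0 or 1 flags, among them the one for spots well above background. No file gave a mean signal column, so normexp (offset 50) used the median signals.

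Outlier spots were left out, and levels were averaged over probe replicates and over the arrays of an animal number, which the labels call biological duplicates. Probes were named through the RefSeq gene table of the assembly UU_Cfam_GSD_1.0. Genes that passed the background flag on 4 arrays or more were tested with limma 3.58.1 in R 4.3.3 (package data.table, version 1.17.8), with a call at an adjusted p of at most 0.05. The scripts were tested on simulated data. The SD of a member pooled over the 3 groups had a median of 1.22 on the log2 scale.

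The members and the 15 marker lists were chosen with earlier results of these data known. By rule, the text names any member called, the 8 members with the smallest limma p in each comparison with healthy gland and the 5 in malignant minus benign, for each role the 2 smallest over both comparisons with healthy gland, and the 4 smallest pathway genes per comparison with healthy gland. Other members named were chosen after their values were seen. Not every member so chosen is described or drawn, and the counts cover all members.

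Where a group had no array of a gene over the background flag, its arrays were set to the higher of their level and the array's lowest level over the flag, which gives the "at least" values, printed only where every array of the other group passed the flag. Alternatives were normexp, quantile and median scaling, the authors' table (same and all arrays), no filter and a strict filter, the mean over probes, arrays with the dog as a random block or the slide as a block, the dog number as a block, only the groups compared, the methods' t-test (run unpaired with pooled variance and Benjamini-Hochberg adjustment in place of paired with Storey's, since the groups hold no pairs), a trend in the variance, and leaving out each dog. A further malignant dog without scanner files was left out.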

Additional observations from a re-analysis of the deposited data

Results flagged for a closer look

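Among 24 members tested for a malignant dog far from the rest, 2 stood out by the gap to the nearest dog as a share of the group's range. IL18 in malignant dog 1 had a share of 0.761 and IL13 in malignant dog 2 one of 0.786, each the highest of the group. For IL13 malignant dog 2 was the only malignant dog with an array well above background, so its gap and range are taken against values at background. Chance flags about 1 in 20 groups (here 1 group for each of 24 members).

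IL2RA came up because its values lay below the healthy mean in every malignant dog and above it in every benign dog, with a fitted difference between the tumours of -1.66. The malignant arrays, the healthy arrays and the arrays of benign dog 1 were all at background, and IL2RA passed the filter only through the other benign arrays, so these sides and this size are no measurement of a fold. Limma tested the difference in malignant minus benign with an adjusted p of 1.00, which does not pass.

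Malignant dog 6 has no scanner files and appears only in the authors' table. Its arrays there were above every healthy array for 6 of the 24 members, with differences from the healthy mean of 2.02 (IL18BP), 0.67 (IL18), 0.33 (IL13), 1.93 (TNFRSF18), 0.31 (IL2RA) and 2.62 (TNFSF13). For IL13 and IL2RA no healthy array used here was well above background and the table has no background taken off, so their differences measure no fold. Of all genes tested, 29.2% were above every healthy array in this dog.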

How the results depend on the processing

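Of 387 comparisons of a named gene's difference with its value under another setting, 361 kept direction and side of the threshold, 19 reversed and 7 passed the threshold. Leaving out a dog kept 285 of 290, with 4 reversed and 1 passing. The cause was not tested unless stated.

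With normexp, in malignant minus healthy 1 member was higher and 1 lower at an unadjusted p of at most 0.05. Each was 1.75%, against 1.02% and 2.7% of all genes. In benign minus healthy 1 was called (IL18BP, 3.04), 2 were higher (3.51% against 1.66% of all genes) and 2 lower (3.51% against 6.13%) with a median of -0.39. In malignant minus benign 4 were lower (7.02% against 0.667%). Reversed were CCR1 (-0.16 in malignant and -0.86 in benign minus healthy), in benign minus healthy IL13 (-0.55), IL2RB (-0.26), IFNG (-0.45) and TNFSF14 (-0.80), and IL2RA in malignant minus benign (0.37).

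In the authors' values of the same arrays, 1 member was higher in malignant minus healthy (1.75% against 1.41% of all genes). In benign minus healthy 1 was called (IL18BP, 3.14) and 5 were higher (8.77% against 2.03%), and in malignant minus benign 6 were lower (10.5% against 0.795%). Reversed were CCR1 (-0.081 and -0.36), IL13 (-0.078), IFNG (-0.12), TNFSF14 (-0.47) and IL2RA (0.084). With all arrays of the authors' values, in malignant minus healthy 1 member was higher and 1 lower, each 1.75%, against 1.8% and 4.16% of all genes. In benign minus healthy 1 was called, 5 were higher (8.77% against 2.3%) and 1 lower (1.75% against 8.25%). In malignant minus benign 6 were lower (10.5% against 0.892%). With all arrays CCR1 (-0.96 and -0.80), IL13 (-0.075), IFNG (-0.12), TNFSF14 (-0.46) and IL2RA (0.23) were reversed.

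With arrays as units and the dog as a random block, 1 member was called, 1 higher and 1 lower in malignant minus healthy (IL18BP called at 2.05), and 2 were called and 5 higher in benign minus healthy (IL18BP at 3.32, and IL1A). The members counted as higher were 1.75% against 4.4% of all genes and 8.77% against 5%, and the 1 lower was 1.75% against 3.87%. Limma called 138 and 142 of all genes. In malignant minus benign 7 members were lower, 12.3% against 1.96% of all genes. With the slide as a block, 1 member was higher and 1 lower in malignant minus healthy, 1 called (IL18BP, 3.28) and 4 higher in benign minus healthy (7.02% against 4.55% of all genes), and 6 lower in malignant minus benign (10.5% against 1.44%). With the dog number as a replicate block, a number that pairs no dogs, 4 were higher and 1 lower in malignant minus healthy, 11 higher in benign minus healthy and 3 lower in malignant minus benign. The shares were 7.02% against 1.4% of all genes for the 4, 19.3% against 2.26% for the 11 and 5.26% against 0.795% for the 3, and 51, 50 and 0 of all genes were called.

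Among the genes well above background on every array fewer are tested, 22 members and 18517 of all genes. There 2 members were higher in malignant minus healthy, 9.09% against 2.3% of all genes, and 2 in benign minus healthy, 9.09% against 2.97%. In malignant minus benign 2 were lower, 9.09% against 0.848%. Limma called 30 and 28 of all genes against healthy gland. With the methods' t-test, run unpaired, 2 members were higher in malignant minus healthy (3.51% against 2.06% of all genes) and 6 in benign minus healthy (10.5% against 2.63%). In malignant minus benign 3 were lower (5.26% against 1.1%), and 9 and 0 of all genes were called against healthy gland. With only the groups compared, 2 were higher in malignant minus healthy (3.51% against 1.68%) and 11 in benign minus healthy (19.3% against 2.9%). In malignant minus benign 12 were lower (21.1% against 1.32%). Limma called 69 genes in malignant minus healthy and 9 in benign minus healthy.

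Leaving out each dog gave 1 to 3 members higher and 0 to 4 lower in malignant minus healthy (0 called, and 51 to 814 of all genes called), 4 to 14 higher, 0 to 3 lower and 0 to 1 called in benign minus healthy (47 to 860 of all genes), and 2 to 13 lower in malignant minus benign (0 to 1 of all genes). Without healthy dog 2 the members counted in malignant minus healthy were 3.51% higher and 7.02% lower, against 5.59% and 8.52% of all genes. Where 1 healthy dog is left, it is assumed to vary like the other dogs. Reversed were CCL26 (-3.52 to 0.074) and IL29L (-0.97 to 0.14) in malignant minus healthy, highest without healthy dog 1, and TNFRSF14 in benign minus healthy (-0.52 to 0.20), at 0.20 without healthy dog 1 and 0.14 without benign dog 2. IL18BP in benign minus healthy was called without healthy dog 2 (3.90).

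Of 19 arrays, the genes reversed with normexp were well above background on 11 (CCR1), 8 (IL13), 4 (IL2RA), 8 (IFNG), 18 (IL2RB) and 15 (TNFSF14). Whether signal over background limits what is left of a difference under each background correction was not tested.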

Other observations

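The marker lists not described above gave these summed levels in malignant dogs 1 to 5, benign dogs 1 to 3 and healthy dogs 1 and 2. B and plasma cell markers, 2 of 9 measured with CD79A the brightest probe, were at -2.93, -2.06, -2.69, -3.31 and -2.46, at -2.11, -2.99 and -2.80, and at -3.43 and -2.59. Mast cell markers, 4 of 7 measured with FCER1A the brightest, were at 0.72, 1.56, -1.69, 0.60 and -0.62, at 0.47, 1.18 and 1.60, and at -1.87 and 1.95.

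Endothelial markers, 3 of 6 measured with VWF the brightest, were at 4.19, 5.57, 4.58, 3.41 and 3.18, at 4.96, 4.15 and 4.64, and at 5.08 and 6.11. Fibroblast markers, 4 of 7 measured with COL1A2 the brightest, were at 7.98, 7.98, 10.72, 8.01 and 4.32, at 7.19, 8.82 and 9.10, and at 5.06 and 9.90. Milk proteins, 2 of 8 measured with LALBA the brightest, were at 0.51, 9.28, -3.25, -1.19 and -1.80, at 2.05, -1.31 and -5.71, and at -3.97 and 1.84.

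Adipose markers, 3 of 7 measured with LEP the brightest over all dogs, were at -0.01, 1.78, 1.1, 0.01 and 5.71, at 0.57, 0.34 and -0.22, and at 1.14 and 1.30. The high sum of malignant dog 5 was carried by PPARG, at 5.09, and ADIPOQ, at 4.12, with LEP at -0.46 there. Skeletal muscle markers, 6 of 8 measured with CKM the brightest, were at -2.13, 2.99, 0.42, -1.92 and -1.56, at -1.04, -1.89 and -2.32, and at -0.16 and -0.40. Proliferation markers, 2 of 7 measured with BIRC5 the brightest, were at 2.19, 1.00, 2.89, 2.33 and 1.52, at 0.07, 2.85 and 3.25, and at -0.97 and -1.12. The part of these tissues in the results on cytokines was not tested.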
